A study of Mus musculus with 2 samples.

Results

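The neural miRNA genes Mir9-1, Mir9-2, Mir9-3, Mir128-1, Mir128-2, Mir137, Mir218-1, Mir218-2 and Mir338 were followed in the facial prominence of mouse embryos, from which face and jaws develop. They were chosen by name, as 9 genes known from the nervous system, and 8 of them have a row among the 1973 miRNA genes of the deposited count tables. Mir9-1 has no row, so its own level is not given. Small RNA was sequenced from strain B6NCrl embryos at day 15.5, and the labels name no mutation and no treatment. All samples belong to 1 group, with 78 embryos of mixed sex pooled for replicate 1 and 62 for replicate 2. The libraries held 2978463 and 6408008 reads assigned to miRNA genes.

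A miRNA is cut from a hairpin with 2 arms (5p and 3p), and its seed, bases 2 to 8 from the 5′ end, pairs with target mRNAs. miR-9 acts in neural progenitors and neurons, miR-128 and miR-137 are enriched in brain and take part in neuronal differentiation, miR-218 is abundant in motor neurons, and miR-338 promotes oligodendrocyte maturation. Several of these genes lie in introns of larger host genes, among them Slit2 and Slit3, which encode secreted axon guidance cues.

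The main mature sequence of each of the 5 miRNAs is shown because the counts depend on how many places in the genome encode it. The seed is in capitals, and sequences are from RefSeq on GRCm38.p6. All 9 genes were found in that table.
miR-9-5p (Mir9-1, Mir9-2 and Mir9-3): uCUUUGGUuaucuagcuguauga
miR-128-3p (Mir128-1 and Mir128-2): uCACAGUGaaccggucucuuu
miR-137-3p (Mir137): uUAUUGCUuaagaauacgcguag
miR-218-5p (Mir218-1 and Mir218-2): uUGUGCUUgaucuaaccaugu
miR-338-3p (Mir338): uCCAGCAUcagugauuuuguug

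The 5 seeds are all different. Among 1679 mature names in the table, 1 other has the seed of miR-218-5p (miR-7002-3p), and none has the seed of miR-9-5p, miR-128-3p, miR-137-3p or miR-338-3p. The seed letters of miR-128-3p also stand at bases 3 to 9 of miR-27a-3p and miR-27b-3p, so these miRNAs have overlapping but shifted seeds.

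The deposited tables count reads that mapped to several places on a line of their own, and their number came to 60.1% (replicate 1) and 65.3% (replicate 2) of that of the assigned reads. That these reads were not also given to genes is inferred from this layout, since the counting rule is not given in the labels or file lists. On that reading, a read that matches copies of a miRNA equally well is missing from the count of each copy. The hairpins of the 3 Mir9 genes show how little differs there, with both mature arms in capitals.
Mir9-1 (chr3:88215598-88215686, plus strand): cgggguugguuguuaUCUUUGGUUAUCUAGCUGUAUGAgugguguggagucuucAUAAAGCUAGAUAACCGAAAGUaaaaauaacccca
Mir9-2 (chr13:83738814-83738885, plus strand): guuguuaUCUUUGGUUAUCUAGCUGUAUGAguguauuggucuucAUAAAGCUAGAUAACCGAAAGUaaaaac
Mir9-3 (chr7:79505264-79505353, plus strand): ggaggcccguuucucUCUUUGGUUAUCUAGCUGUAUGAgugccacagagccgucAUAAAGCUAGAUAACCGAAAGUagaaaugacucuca

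Both arms are letter for letter the same in the 3 hairpins. Around each arm, Mir9-1 and Mir9-2 share a stretch of 33 bases, and for the 5p arm that stretch begins at the first base of the Mir9-2 hairpin. Mir9-3 shares 26 bases with them around the 5p arm and 25 around the 3p arm. It departs from the other copies at the base just before the 5p arm, and it shares 1 base with them after the 3p arm.

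In the Mir128 and Mir218 pairs only 1 arm is shared. The shared stretch is 23 bases around miR-128-3p and 22 around miR-218-5p. The other arm has a sequence of its own in each copy, which is shown here with its seed in capitals.
miR-128-1-5p (Mir128-1): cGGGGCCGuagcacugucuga
miR-128-2-5p (Mir128-2): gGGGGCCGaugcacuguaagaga
miR-218-1-3p (Mir218-1): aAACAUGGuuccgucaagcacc
miR-218-2-3p (Mir218-2): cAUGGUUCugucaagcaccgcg

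The 5p arms of Mir128-1 and Mir128-2 have the same seed, and neither has more than 7 bases in a row in common with the other copy's hairpin. Such runs of 7 bases lie on both sides of a short difference, so the arms are alike beyond the seed. For the 3p arms of Mir218-1 and Mir218-2 the longest run in common is 10 bases, and such runs lie on both sides of a differing base. Their seeds differ, but the seed letters of miR-218-1-3p also stand in the Mir218-2 hairpin, where the annotated arm starts further along. Mir137 and Mir338 have no such copy. Among 1005 hairpins in the table, the longest stretch found at another place was 10 bases for Mir137 and 15 bases for Mir338, less than in any of the other 7 hairpins.

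**Figure D1:**
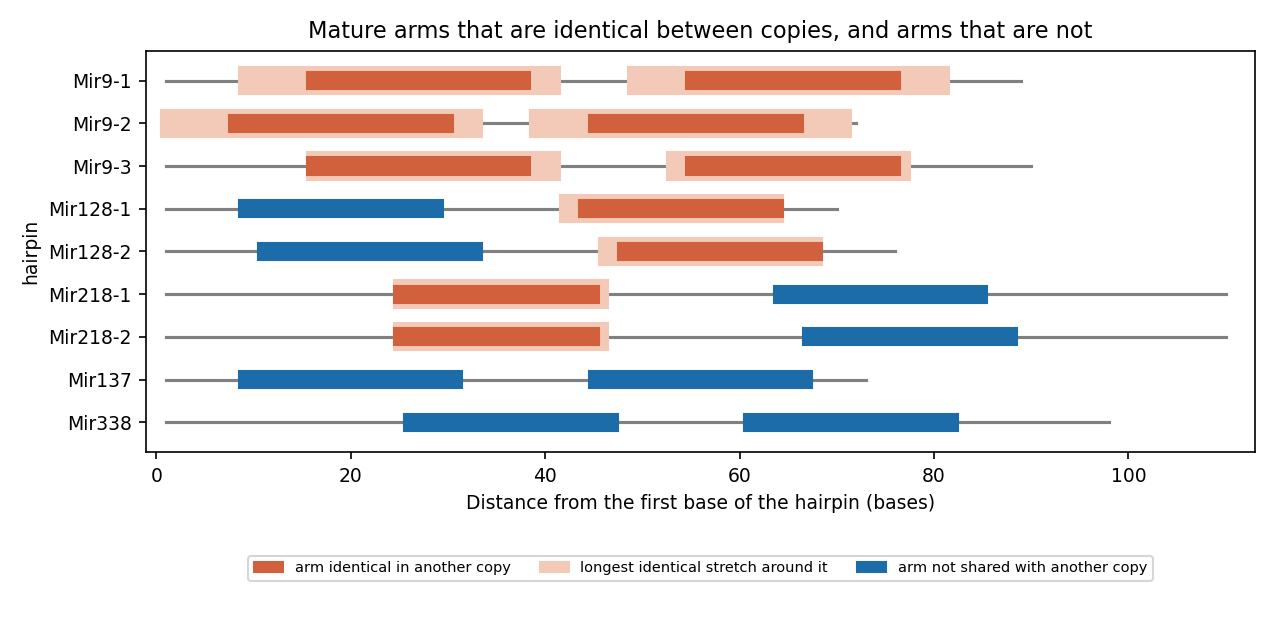
Hairpins of the 9 genes drawn to scale, with the distance from the first base of the hairpin in bases on the x axis. Dark orange boxes are mature arms that are identical in another copy, pale boxes the longest identical stretch around them, and blue boxes arms that no other copy has; both arms of the 3 Mir9 hairpins are shared, against 1 arm in the Mir128 and Mir218 pairs.

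The neural genes held a small share of the assigned reads, led by Mir137, Mir128-1, Mir128-2 and Mir338. By mean level these ranked 162, 164, 180 and 191 of 1973 genes. Levels are given as CPM, the count scaled to the assigned reads of its library after TMM normalization. A read of this size class spans about 1 mature arm, so levels were not divided by hairpin length, and the counts do not tell the arms apart. The sum over the 8 counted genes was 758 CPM (replicate 1) and 658.5 CPM (replicate 2), with a mean of 708 ± 70.2 CPM (SD, n = 2). This was 0.0760% and 0.0656% of assigned reads. Of these genes 6 had at least 10 reads in each library, and Mir9-3 and Mir9-2 did not. Of all 1973 genes, 333 did. In whole tissue, fewer cells that express a miRNA and less of it per cell cannot be told apart.

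Mir137, a regulator of neuronal differentiation and dendrite growth, lies at chr3:118433857-118433929 in an exon of the noncoding gene Gm26871. It had 578 reads in replicate 1 and 1304 in replicate 2, which gave 193 and 204 CPM (198.8 ± 7.65 CPM, SD, n = 2). This was rank 162 of 1973 genes by mean level. Its share of assigned reads was 0.0194% (95% Clopper-Pearson interval 0.0179 to 0.0211) and 0.0203% (0.0193 to 0.0215). These intervals overlap, and like all intervals here they cover counting error only.

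Mir128-1 lies in an intron of R3hdm1 at chr1:128202361-128202430, and Mir128-2 in an intron of Arpp21, a gene of neurons, at chr9:112118636-112118711. Mir128-1 had 704 and 1009 reads, or 235.5 CPM in replicate 1 and 158 CPM in replicate 2 (197 ± 54.8 CPM, SD, n = 2). Mir128-2 had 488 and 833 reads, or 163 and 130.4 CPM (147 ± 23.2 CPM). Both copies were higher in replicate 1, and Mir128-1 was above Mir128-2 in each library. Of the reads of the pair, Mir128-1 held 59.1% (95% Clopper-Pearson interval 56.2 to 61.9) in replicate 1 and 54.8% (52.5 to 57.1) in replicate 2. On the reading above, these shares hold only for reads that mapped to 1 place.

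Mir338 lies in an intron of Aatk, a kinase gene of the nervous system, at chr11:120014765-120014862. It had 364 and 773 reads, or 122 and 121 CPM (121 ± 0.518 CPM, SD, n = 2), the smallest relative spread of the 8 counted genes. Mir3065 is annotated on the opposite strand of the same place and has no count row. Only 2 reads of Mir338, both in replicate 1, lay on that strand. No other member had a read on its opposite strand.

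Mir218-2 in Slit3 was the higher copy of its pair. It lies in an intron of Slit3 at chr11:35616816-35616925 and had 93 and 192 reads, or 31.1 and 30.1 CPM (30.6 ± 0.741 CPM, SD, n = 2). Mir218-1 lies in an intron of Slit2 at chr5:48223942-48224051 and had 30 and 60 reads, or 10.04 and 9.40 CPM (9.72 ± 0.453 CPM). Mir218-2 held 75.6% (95% Clopper-Pearson interval 67.1 to 82.9) of the reads of the pair in replicate 1 and 76.2% (70.4 to 81.3) in replicate 2. Both intervals lie above those of Mir128-1 within its own pair. As with Mir128, the division is between reads given to a copy, and how many of them came from the shared miR-218-5p is not known.

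The Mir9 genes had almost no reads of their own. Mir9-3, in an intron of the noncoding gene Mir9-3hg, had 8 reads in replicate 1 and 33 in replicate 2 (2.68 and 5.17 CPM, 3.92 ± 1.76 CPM, SD, n = 2). Mir9-2, in an exon of the noncoding gene C130071C03Rik, had 0 reads in replicate 1 and 1 in replicate 2. A count of 0 allows up to 3 reads, which is 1.00 CPM in replicate 1 and 0.470 CPM in replicate 2, so Mir9-2 stood under this limit in each library. Mir9-3 held 8 of 8 and 33 of 34 reads of these 2 genes. It is also the copy that departs from the others closest to its mature arms, and whether this bears on its reads was not tested. Since both arms are shared by all copies, these counts do not measure how much miR-9 the tissue held.

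Mir9-1 lies in an intron of the noncoding gene Gm3764. The predicted miRNA gene Gm25641 overlaps it on the opposite strand and was counted. It had 1 read in replicate 1 and 7 in replicate 2, and all of them lay on the strand of Mir9-1. Within 10 kb of the members, the other counted miRNA genes were Mir3093, 340 bases from Mir9-1, and Gm24155, 791 bases from Mir137, and neither had a read in either library.

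By mean level the order was Mir137, Mir128-1, Mir128-2, Mir338, Mir218-2, Mir218-1, Mir9-3 and Mir9-2. Mir137 and Mir128-1 differed by 2.02 CPM, less than the SD of Mir128-1, and which of them was higher changed between the replicates. Mir128-1 and Mir128-2 differed by 49.9 CPM, also less than the SD of Mir128-1, although their order was the same in each library. From Mir128-2 downward, each step in the order was larger than the larger SD of the neighbours and held in each library. This is an order of the reads given to each gene. On the reading above, reads that match copies equally well are missing for Mir128, Mir218 and Mir9. The order therefore does not rank amounts of miRNA.

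**Figure D2:**
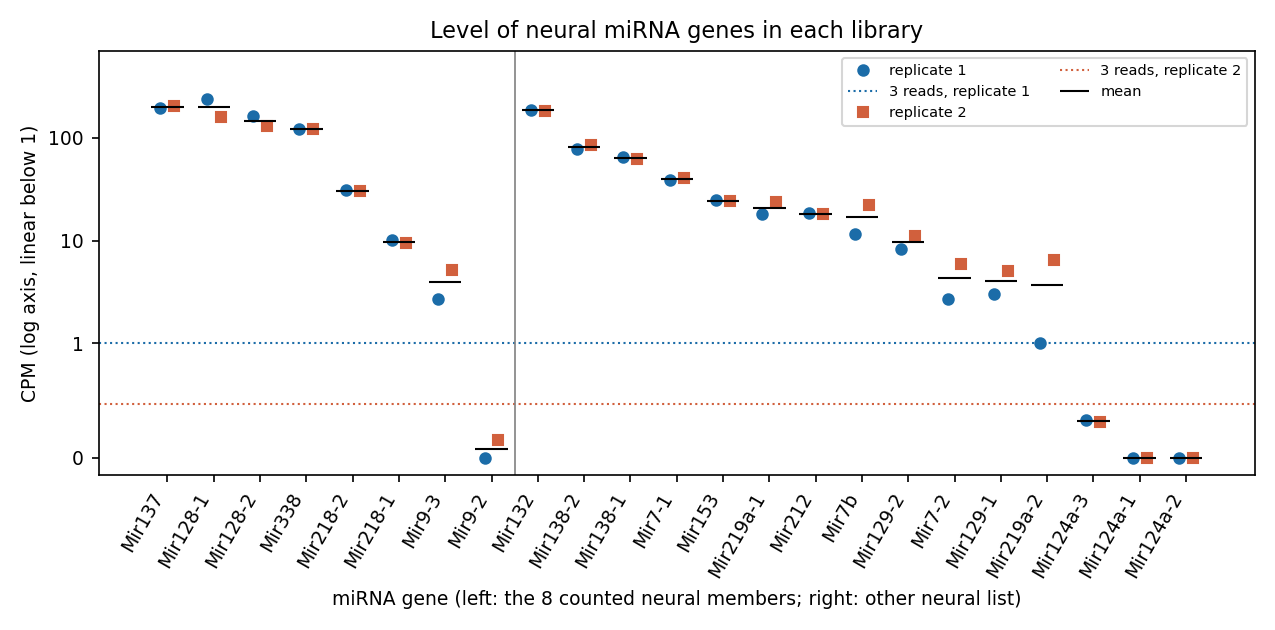
CPM of the 8 counted neural genes (left of the grey line) and of 15 other neural miRNA genes (right) in replicate 1 (circles) and replicate 2 (squares), on an axis that is logarithmic above 1 and linear below it. Black bars are means and dotted lines the level of 3 reads in each library; Mir137, Mir128-1, Mir128-2 and Mir338 lie above 100 CPM, and Mir9-2 lies under both dotted lines.

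The libraries were then set against each other to see how far the neural genes varied between them. Each pool of embryos has its own library, so differences of pool and of library preparation or sequencing cannot be told apart. With 1 library against 1 there is no test, and ratios carry a 95% interval for counting error only. None of the 6 members with at least 10 reads in each library was over 1.5-fold apart, where 10.8% of all such genes were (36 of 333). The median log2 ratio of replicate 2 over replicate 1 was −0.07 over the 6 members and −0.02 over all 333 genes.

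Among the members, Mir128-1 and Mir128-2 had intervals that leave out 0. How many of the 333 genes had such an interval was not counted. Counting intervals narrow as reads increase, so leaving out 0 depends on depth as well as on the ratio. Mir128-1 was 1.49-fold higher in replicate 1 (log2 ratio −0.58, interval −0.72 to −0.43), just inside the 1.5-fold limit, which its interval crosses. Scaled by total counts it lay just past the limit (log2 ratio −0.59). Of the 333 genes, 40 (12.0%) had a ratio at least as large in either direction. Mir128-2 was 1.25-fold higher in replicate 1 (−0.32, −0.49 to −0.16). Of the 333 genes, 112 (33.6%) had a ratio at least as large as that of Mir128-2. The intervals of both copies lie under 0, overlap each other and overlap that of Mir218-1. That of Mir128-2 also overlaps those of Mir338 and Mir218-2. Summed, the pair had a log2 ratio of −0.47 (−0.57 to −0.36). Some marker lists of other cell types also differed between the libraries. The striated muscle list had a sum of 8091 CPM in replicate 1 against 6087 in replicate 2 (log2 ratio −0.41). All 4 of its 8 counted genes with enough reads were higher in replicate 1, as were 178 of the 333 genes. Mir133a-1 and Mir133a-2, by name copies of the same miRNA, were at 0 in each library. As for Mir9, such counts do not measure how much of the miRNA was present. The sum of the sensory epithelium list was higher in replicate 2 (14654 against 20391 CPM, log2 ratio 0.48). The other lists of cell types lay between −0.24 (epithelium) and 0.40 (retina, lens and pigment), with smooth muscle at 0.03. The part of these differences in the Mir128 ratios was not tested.

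The other 4 members had intervals that include 0. Mir137 had a log2 ratio of 0.08 (−0.06 to 0.22), Mir338 of −0.01 (−0.19 to 0.17), Mir218-2 of −0.05 (−0.41 to 0.32) and Mir218-1 of −0.10 (−0.75 to 0.59). For Mir218-1 the interval is wide enough to hold differences over 1.5-fold in either direction. The sum of all counted members was higher in replicate 1 (log2 ratio −0.20, −0.28 to −0.13), and the Mir128 pair supplied 398.8 of the 758 CPM in replicate 1 and 288.5 of the 658.5 CPM in replicate 2.

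**Figure D3:**
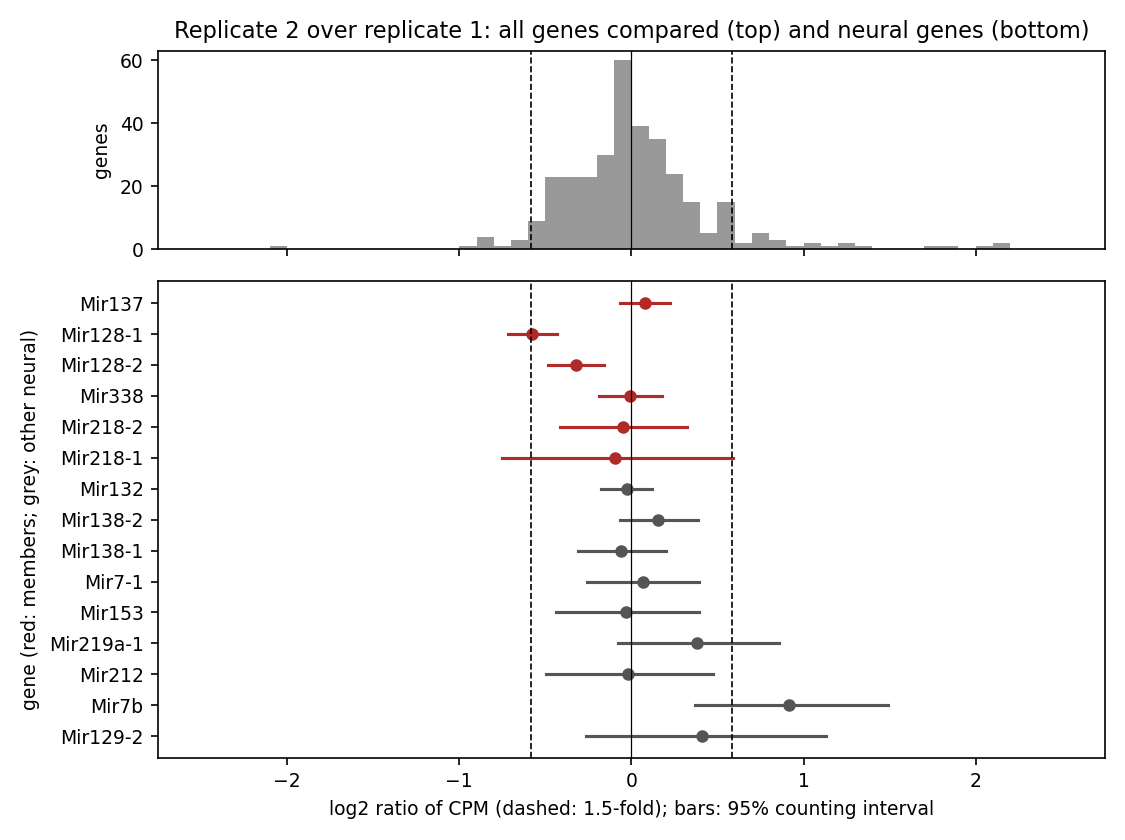
Log2 ratio of CPM, replicate 2 over replicate 1, for all 333 genes with at least 10 reads in each library (histogram, number of genes on the y axis) and for the neural genes among them (points with 95% counting intervals, members in red and other neural genes in grey). Dashed lines mark 1.5-fold; Mir128-1 at −0.58 sits at the left line, and Mir7b at 0.91 lies beyond the right one.

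Other miRNAs of the nervous system also held a small share of the assigned reads. The list of 15 genes had a sum of 455 CPM (replicate 1) and 488 CPM (replicate 2) (472 ± 23.4 CPM, SD, n = 2). In this list 9 genes had at least 10 reads in each library, beside 333 of all 1973 genes. Mir132, an activity-regulated miRNA of neurons, was the highest with 560 and 1174 reads, or 187 and 184 CPM. Its neighbour Mir212 had 18.4 and 18.2 CPM. Mir138-2 (77.0 and 85.8 CPM) and Mir138-1 (64.2 and 61.7 CPM), copies of a miRNA known from dendrites, came next.

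Mir124a-1 and Mir124a-2, which encode the neuron marker miR-124, had 0 reads in each library, and Mir124a-3 had 1 and 2 reads, all on its opposite strand. As for Mir9, these are copies of 1 miRNA, and their counts do not measure how much of it was present. Of the 12 genes of this list found in the RefSeq table, 8 share at least 20 bases with another hairpin, and Mir132, Mir212, Mir153 and Mir7b do not. The oligodendrocyte miRNA genes Mir219a-1 (54 and 150 reads) and Mir219a-2 (3 and 41 reads) and the copies Mir129-1 (9 and 32 reads), Mir129-2 (25 and 71 reads) and Mir7-2 (8 and 38 reads) share such a stretch. Mir7-1, in an intron of Hnrnpk, had 115 and 257 reads, and Mir153, in an intron of Ptprn2, had 74 and 155 reads.

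In this list 1 of 9 compared genes was over 1.5-fold apart, a share near the 10.8% of all 333 genes. Mir7b, of the miR-7 family of brain and endocrine cells, had 35 and 141 reads, or 11.7 and 22.1 CPM. It was higher in replicate 2 (log2 ratio 0.91, 0.37 to 1.49). The median log2 ratio of the list was 0.07. Set beside the members, Mir132 (−0.03, −0.17 to 0.12) and Mir212 (−0.02, −0.49 to 0.47) lay near Mir137 and Mir338. No gene of this list had an interval wholly under 0 as Mir128-1 and Mir128-2 did, a trait not counted over all 333 genes.

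Against markers of other cell types the neural sum was small. All 7 epithelial, 4 mesenchymal and 2 cartilage genes had at least 10 reads in each library. So did every gene of the smooth muscle, endothelium, sensory epithelium, retina, lens and pigment, and erythroid lists. Of the 8 counted striated muscle genes, 4 did. Of all 1973 genes, 333 did. The sum of the epithelial genes was 200.6 times the neural sum in replicate 1 and 195 times in replicate 2. Mesenchymal genes exceeded it 23.9-fold and 25.2-fold and cartilage genes 20.3-fold and 21.9-fold. The endothelial Mir126a exceeded it 31.9-fold and 43.1-fold, smooth muscle genes 23.6-fold and 27.7-fold, sensory epithelium genes 19.3-fold and 31.0-fold, and striated muscle genes 10.7-fold and 9.24-fold. The retina, lens and pigment genes reached 0.354 and 0.539 of the neural sum, and the erythroid pair 0.259 and 0.325. How far the hairpins of the other cell types share sequence was not measured, so these ratios compare the deposited counts and not amounts of miRNA.

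**Figure D4:**
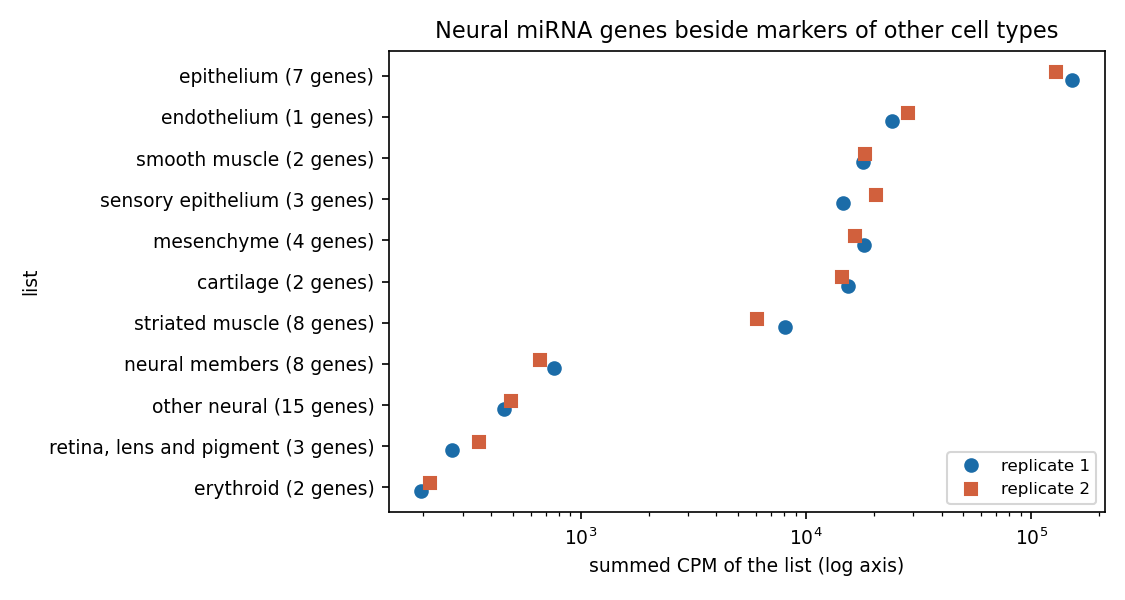
Summed CPM of each marker list on a logarithmic axis in replicate 1 (circles) and replicate 2 (squares), with the number of counted genes per list. The 8 neural members, at 758 and 658.5 CPM, lie between striated muscle and the other neural list, and the order of the neural lists to striated muscle is the same in each library.

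The genes whose levels were most like those of the members were sought over the 2 libraries, by the distance between log2 CPM values. This measures likeness of level alone, since 2 libraries hold no pattern beyond level and ratio. Mirlet7c-1 was nearest to Mir137 (195.7 and 201 CPM, distance 0.03), followed by Mir185 (0.08) and Mir199a-2 (0.09). Nearest to Mir128-1 was Mir152 (210.1 and 154 CPM, distance 0.17), with Mir329 and Mir450b next. Nearest to Mir128-2 was Mir574 (163 and 134.5 CPM, 0.04), with Mir29a and Mir32 next. For Mir338 the nearest gene was Gm24111 (138 and 133 CPM, 0.23), and Mir3074-1 and Mir410 lay at the same rounded distance. For Mir218-2 it was Mir450-1 (32.5 and 31.3 CPM, 0.085), ahead of Mir20b and Mir486. For Mir218-1 it was Mir3066 (9.37 and 9.87 CPM, 0.12), ahead of Mir19b-1 and Mir129-2.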

How the data were processed

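The deposited tables hold raw read counts for each miRNA gene, made on mm10 with the GENCODE M4 annotation per the deposited file lists. Each row counts sense reads, opposite-strand reads and their total, and the total was used. Aligner and counter: not given in the sources used here. The lines for reads of no gene stayed out of library sizes. Symbols, positions and host genes came from GENCODE M21 on the same build (GRCm38), which named 1894 of 1973 identifiers. CPM used TMM factors from edgeR 4.0.16 (R 4.3.3) over genes with at least 10 reads in each library. Shares and ratios carry exact Clopper-Pearson intervals at 95%, which cover counting error only and hold no spread between libraries. They treat reads as independent, and would be too narrow where several reads came from the same molecule. The libraries differed beyond sampling noise (chi-square per degree of freedom 201) and counted as 2 replicates. The ratio script was tested on simulated data.

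The members, lists, rules and alternatives were chosen with earlier results of these data known. Named genes were all members, all genes of the other neural list, genes within 10 kb of a member and the 3 genes nearest in level to each member with at least 10 reads in each library. Alternatives were total-count scaling, DESeq2 1.42.0 size factors, reads on the strand of the gene, other read minimums, summed copies, multi-mapped reads in the library size and each replicate left out. Python 3.11.15, pandas 2.3.3, scipy 1.17.1 and matplotlib 3.10.9 were used.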

Additional observations from a re-analysis of the deposited data

Results flagged for a closer look

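Among the members, the other neural list and the miRNA genes within 10 kb of a member, the only genes looked at for this, reads on the strand opposite to the annotated gene exceeded the 3 reads that a count of 0 allows at 2 places in replicate 2. Gm25641 had 7 such reads, on the strand of Mir9-1, against 1 in replicate 1. Mir219a-1 had 5 such reads of 150, against 1 of 54 in replicate 1.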

How the results depend on the processing

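The summed level of the counted members was 708 CPM, and it lay between 707.7 and 708.3 CPM under the other scalings and on the strand of the gene, and between 658.5 and 757.8 CPM with each replicate left out. With multi-mapped reads added to the library size it was 436 CPM, because the divisor is larger. The log2 ratio of the sum stayed between −0.21 and −0.17. No member was past 1.5-fold with TMM scaling (10.8% of all genes compared), DESeq2 scaling (12.0%) or at least 100 reads (4.45%). With total-count scaling 1 was (Mir128-1, log2 ratio −0.59), beside 10.5% of all genes, and 1 was with a minimum of 1 read (Mir9-3), where 32.5% of 560 genes were. TMM factors over all genes, an alternative chosen after seeing the data, gave 0 members and 38 genes (11.4%) past 1.5-fold. All 36 ratios of single members, pairs and the sum under other settings lay within the counting interval of the value given. Depth limits Mir9-2, Mir9-3 and Mir218-1, and none of these settings assigns multi-mapped reads to genes.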
